A study of Mus musculus with 8 samples.

Results

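Foxa2 binding was compared between old and young liver from the sites listed for each age. All sites of the young Foxa2 list and of the old Foxa2 list were taken, 6604 and 12834, which is 19438 of the 28196 sites of the whole series. The other sites belong to Hdac3, a histone deacetylase. The young group was C57BL/6 mice of 3 months and the old group C57BL/6 mice of 21 months, both wild type, with 2 liver libraries each. No treatment is named for either group. Both groups were precipitated with the same rabbit antiserum to Foxa2, and chromatin came from snap-frozen whole liver, so hepatocytes and the other cells of the organ were measured together. Chromatin immunoprecipitation with sequencing (ChIP-seq) was used, in which DNA bound by a protein is pulled down with an antibody and sequenced. Both libraries of an age stand behind 1 list of sites, whether they came from separate animals is not given, and the read depth is unknown. No value therefore has a replicate error and age was not tested. Intervals are exact (Clopper-Pearson) 95% binomial intervals that cover counting error only.

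Foxa2 belongs to the forkhead box A family of transcription factors. Its winged-helix domain resembles a linker histone, and it can bind DNA that is wrapped on a nucleosome, for which it is called a pioneer factor. In liver it is needed with its relatives for the organ to form, and in the adult it occupies enhancers of genes of glucose, lipid and bile acid metabolism together with other hepatocyte factors. The series set Foxa2 binding at both ages beside changes of nucleosome occupancy in aged liver. Positions are in the mm9 build as the lists give them. No annotation or sequence of that build was used here, so sites are named by position, neither gene nor motif is assigned, and the liver label could not be checked against liver genes.

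Young and old liver shared their best-supported Foxa2 sites, while most weaker sites were listed at 1 age. Counting any overlap of 1 bp or more, 2690 young sites had an old counterpart, 40.7% of the young list, and 2690 old sites had a young counterpart, 21.0% of the old list. Support is given by the authors' q-value, the false discovery rate attached to a site, where lower is better. Among the 166 young sites with a q of 1e-05 or less, 161 were shared, 97.0% (95% interval 93.1 to 99.0). The share was 84.2% for 819 young sites between 0.001 and 0.01 and 25.2% for 3708 sites between 0.02 and 0.05. This last class made up 56.1% of the young list. Old sites followed the same order from a lower level. Of 894 old sites with a q of 1e-05 or less, 784 were shared, 87.7% (85.4 to 89.8). The old share was 29.2% for 1584 sites between 0.001 and 0.01 and 2.71% for the 3100 sites over 0.1, which were 24.2% of the old list. Each list thus held a large class of weaker sites that recurred at the other age far less often than its best-supported sites. That class lay at a different q in each list.

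**Figure D1:**
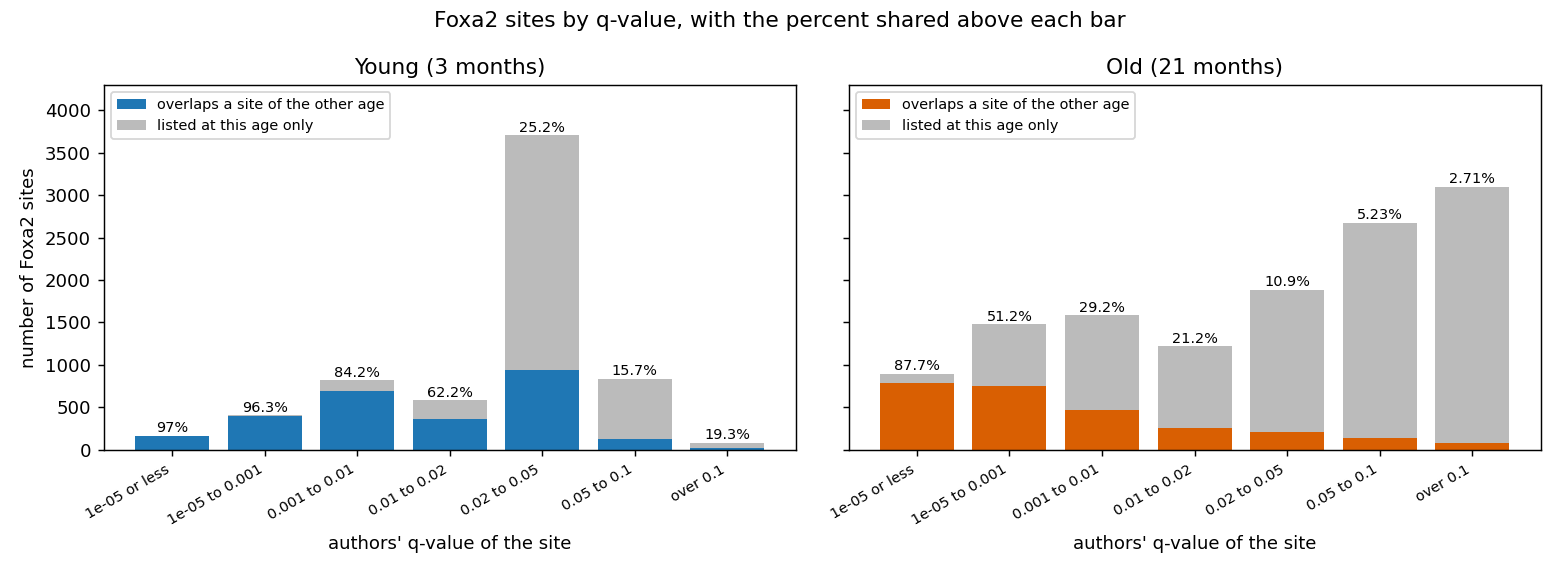
Number of Foxa2 sites (vertical axis) in each class of the authors' q-value (horizontal axis) for the young list (left) and the old list (right). The coloured part of a bar is the sites that overlap a site of the other age, the grey part those that do not, and the label gives the percent shared, from 97.0% down to 15.7% at a q of 0.05 to 0.1 and 19.3% over 0.1 in the young list and from 87.7% to 2.71% in the old list.

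The 2 lists differed when only well-supported sites were followed from each to the other. Of 1393 young sites with a q of at most 0.01, 1056 (75.8%) overlapped an old site that was also within 0.01. Another 188 (13.5%) overlapped an old site with a higher q, and 149 (10.7%) had no counterpart. Of 3954 old sites within 0.01, 1057 (26.7%) overlapped a young site within 0.01 and 946 (23.9%) a weaker young site. The remaining 1951 (49.3%) had no counterpart in the young list. At a q of at most 0.001, 20 of 574 young sites (3.48%) lacked one, and 830 of 2370 old sites (35.0%) did. At this level almost every young site was found again in old liver, whereas 830 old sites were not listed in young liver at any q. How much of this goes with read depth was not tested, since depths are unknown. List length also enters. Young and old sites mostly overlapped singly, and only 1393 young sites were within 0.01. Most of the 3954 old sites within 0.01 therefore could not meet a young site within that limit. The gap between 75.8% and 26.7% thus follows in part from the unequal numbers of sites. The size of that part was not tested at these limits.

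**Figure D2:**
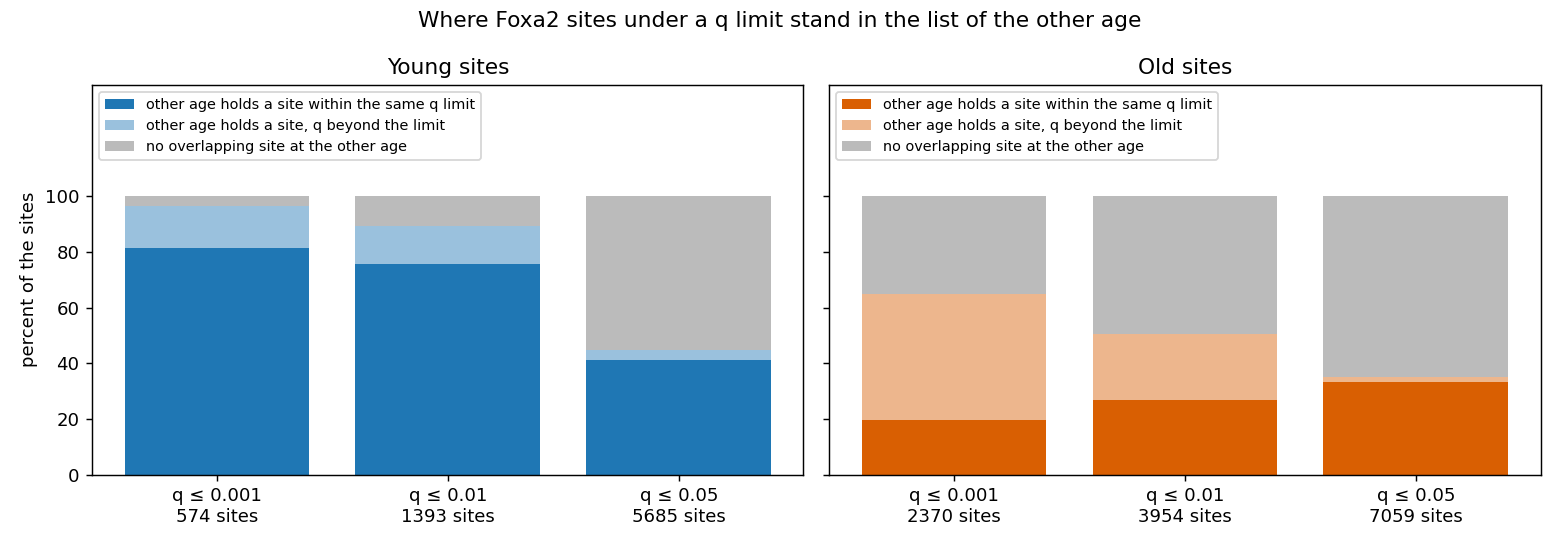
Percent of Foxa2 sites (vertical axis) under 3 limits of q (horizontal axis) by whether the list of the other age holds a site within the same limit (dark), a site beyond the limit (pale) or none (grey). The grey part is 3.48% for young and 35.0% for old sites at 0.001, and 10.7% and 49.3% at 0.01.

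The well-supported sites of only 1 age differed in their surroundings. Of the 1951 old-only sites within 0.01, 1554 (79.7%) lay more than 10000 bp from any young site, 350 lay over 500 and up to 10000 bp away and 47 within 500 bp. Their median width was 157 bp. Hdac3 sites of either age overlapped 34 of them, 1.74% (1.21 to 2.43), beside 2.45% over the whole old list. Of the 149 young-only sites within 0.01, 78 (52.3%) lay more than 10000 bp from an old site, 57 lay over 500 and up to 10000 bp away and 14 within 500 bp. These distances run to lists of unequal length, 12834 old against 6604 young sites, and a longer list leaves smaller gaps. The 79.7% and 52.3% are therefore not like for like. Hdac3 sites overlapped 43 of the 149 young-only sites, 28.9% (21.7 to 36.8), beside 4.74% over the whole young list. A further comparison comes from the shared sites within 0.01 in the young list, of which 137 of 1244 (11.0%) had an Hdac3 site. Outside windows of 100 kb with 8 or more young sites the Hdac3 share was 21.6% (14.4 to 30.4) for the 111 young-only sites left and 7.78% (6.32 to 9.44) for the 1196 shared ones. Inside such windows it was 50% (33.4 to 66.6) for 38 young-only sites and 91.7% (80.0 to 97.7) for 48 shared ones. The order of these classes turned there, but these sites crowd into only 12 windows, which the intervals do not cover.

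Shared sites lay at nearly the same place at both ages. The 2690 shared sites of each list formed 2700 overlapping pairs, of which 2663 (98.6%) were 1 young site on 1 old site. The centre of the old site lay a median of 18 bp from that of the young site (quartiles 8 and 35.5), and 2277 pairs (84.3%) had centres within 50 bp. There was no drift to one side, with a median signed offset of -0.5 bp. In 2037 pairs (75.4%) the young site lay inside the old one, and the reverse held for 119 (4.41%). Exactly 1 pair had the same begin and end, so the lists were drawn separately.

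The old site was the wider one in 2453 of 2700 pairs (90.9%), with a median ratio of old to young width of 1.98 (quartiles 1.41 and 3.50). Since young width is the divisor, a narrow young site gives a high ratio by construction, so widths are given by class as a description. Over 410 pairs with a young site under 30 bp, the median width was 14 bp in the young and 142.5 bp in the old list, with centres a median of 18.5 bp apart. Over 979 pairs with a young site of 100 bp or more, the medians were 127 bp and 187 bp and the ratio 1.40. Most narrow young sites had no old counterpart: 18 of 144 young sites of 1 bp (12.5%) and 392 of 2628 sites of 2 to 29 bp (14.9%) were shared. Inside the regions that all 4 lists of the series hold, the direction turned: there the young site was the wider one in 100 of 116 pairs, and the median ratio was 0.891. Over the 1059 pairs with a q of at most 0.01 at both ages the median ratio was 1.61. Over pairs that touch an Hdac3 site of either age the old site was the wider one in 90 of 216 (41.7%). Regions held by all 4 lists contain Hdac3 sites by definition, so this count is not separate from that of the 116 pairs. Pairs that touch Hdac3 outside those regions were not counted apart.

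**Figure D3:**
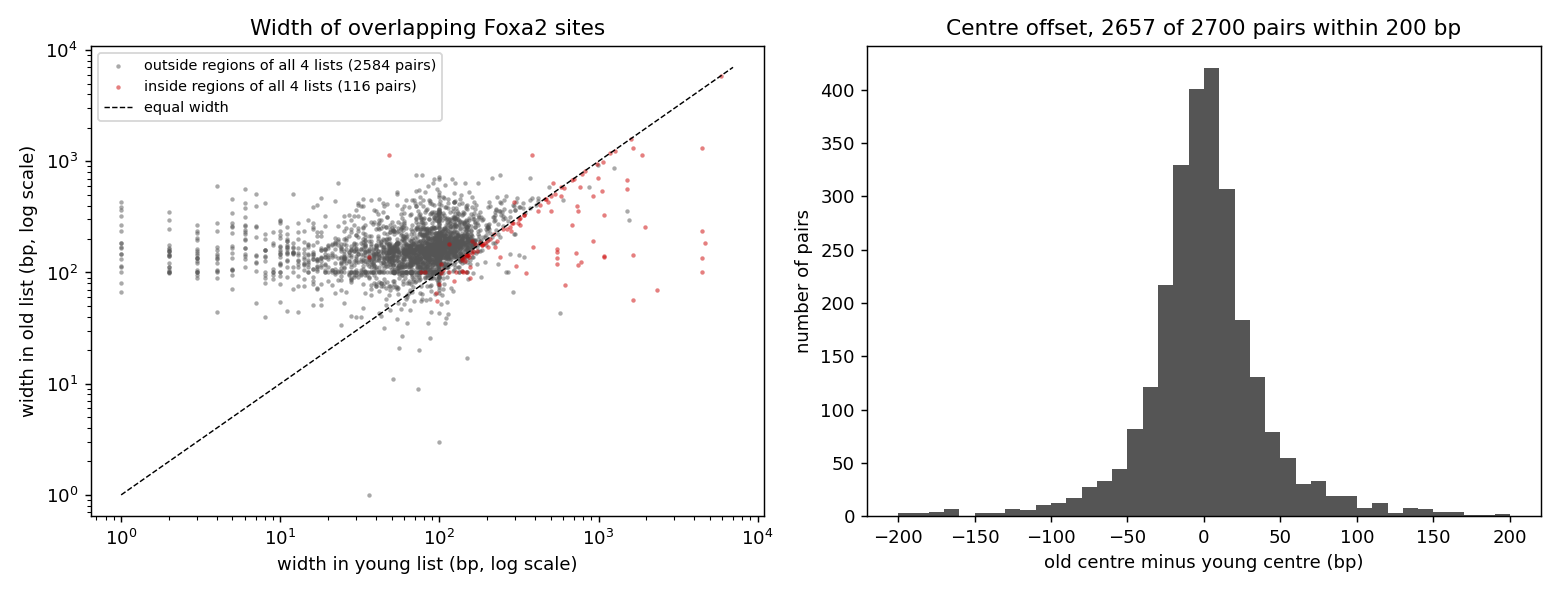
Left, width in the old list against width in the young list (both in bp, log scales) for the 2700 overlapping pairs of Foxa2 sites, in red the 116 pairs inside regions held by all 4 lists; the dashed line marks equal width. Right, number of pairs by the offset of the old centre from the young centre in bp, for the 2657 pairs within 200 bp; most points on the left lie above the line, and the offsets centre on 0.

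The support of a site in young liver was loosely related to its support in old liver. Across the 2700 pairs, Spearman's rho between the ages was 0.44 for the q-value, 0.34 for width and 0.28 for the authors' enrichment. Over the 2584 pairs outside regions held by all 4 lists the values were 0.47, 0.33 and 0.22. Pairs of 1 list share their libraries and are not replicates, so these values describe the lists only. The old site had the lower q in 2082 pairs (77.1%).

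Width and q each went with sharing, except among the widest young sites. Among young sites with a q between 0.01 and 0.05, 15.8% of 2206 sites under 30 bp were shared (95% interval 14.3 to 17.4), 44.5% of 1926 sites of 30 bp to under 100 bp (42.3 to 46.8) and 58.1% of 160 wider sites (50.1 to 65.9). Within this middle width class the young share was 84.3% at a q of at most 0.01 and 24.9% over 0.05. Over 0.05 the young share did not keep the order, with 10.7% under 30 bp, 24.9% in the middle class and 17.4% of 23 wider sites. Over all q it fell from 90.6% of 906 young sites of 100 to 199 bp to 64.9% of 228 sites of 200 bp or more. The share of old sites over 0.05 rose with width, from 0.870% of 1035 sites under 30 bp to 3.74% of 4389 in the middle class. It was 14.5% for 351 wider old sites. The lists also differed in how wide a site of a given q was. Of the sites with a q of at most 0.01, 442 of 1393 young sites (31.7%) but 1 of 3954 old sites measured under 100 bp. In the old list 919 sites measured exactly 100 bp, against 108 that were 1 bp narrower and 63 that were 1 bp wider. In the young list these numbers were 153, 38 and 14. The sources at hand do not say what sets this width.

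Sites of only 1 age mostly lay far from the other list. Of 3914 young-only sites, 3071 (78.5%) were more than 10000 bp from an old site, and of 10144 old-only sites 8374 (82.6%) were that far from a young site. At the near end, 70 young-only sites (1.79%) and 67 old-only sites (0.660%) missed a site of the other age by 100 bp or less, and 87 and 147 more missed one by up to 500 bp. Near misses were therefore few, and calling sites shared up to 500 bp apart gave 43.1% of the young and 22.6% of the old list. Young-only sites within 100 bp of an old site had a median width of 17 bp and those up to 500 bp away one of 45 bp, beside 21 bp over all young-only sites. For old-only sites the medians were 91 bp and 98 bp, beside 90 bp over all of them.

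Individual sites show these classes. They were the sites with the highest enrichment in their class among those at least 30 bp wide with a q of at most 0.01, outside regions held by all 4 lists. Enrichment is the authors' fold per site, and it describes rank within 1 list only. The old-only site with the highest enrichment lay at chr6:3257944-3258083, with an enrichment of 332, and the nearest young site was 106 kb away. At chr3:18196137-18196285 an old-only site reached 166 with the nearest young site 771 kb away. The last of these, on chromosome 18, had an enrichment of 136, and the nearest young site was 852 kb away. The old-only site at chr5:149862935-149863103 (enrichment 226) was a case of another kind. A young site of 1 bp at position 149862933, with an enrichment of 4126 and a q of 0.0241, missed it by 2 bp.

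The young-only sites chosen in the same way had q-values close to the limit. The first, at chr13:74667037-74667102, had an enrichment of 115, and an old site of 99 bp with an enrichment of 122 began at 74666113 and ended 826 bp before it. The site at chr5:41527297-41527394 (62.3) stood 227 kb from the nearest old site, and that at chr2:138082396-138082445 (52.1) stood 644 kb from one. The last, at chr6:114919172-114919250 (50.5), had an old site 15.3 kb away. The q-values of these 4 young-only sites ran from 0.00585 to 0.00978. Those of the 4 old-only sites ran from 6.84e-07 to 0.00405. None of the 8 overlapped an Hdac3 site, beside 4.74% over the whole young and 2.45% over the whole old list, so 8 sites say little on this. The young-only site on chromosome 13 lay 266 bp from an Hdac3 site. The others lay from 8825 to 377543 bp from one.

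The shared sites of highest enrichment in 1 list were not those of highest enrichment in the other. They were picked as extremes of 1 list, so lower values in the other follow in part from the selection. Ranks here are by q, and enrichments of both lists are printed without comparing their size. The site at chr5:124304761-124304802 led the young list among them with an enrichment of 87.6 and a rank of 1077 by q, and its old counterpart, 111 bp wide with an enrichment of 73.6, ranked 3783. At chr16:34887317-34887446 the young site (84.6) ranked 450 and its old counterpart, 223 bp wide, ranked 139. In the old list the leading shared site lay at chr5:125976050-125976258 with an enrichment of 203 and rank 263, and the young site there had 34.9 and rank 570. A second old site in the same stretch of chromosome 5, chr5:125914517-125914680, had an enrichment of 199, and the young site there 12.6. That at chr4:137423263-137423455 (202, rank 21) had a young counterpart of 47.0 and rank 37. It was the only 1 of these 5 sites within the first 100 of both lists.

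Some shared sites were far wider in old liver. At chr9:46064338-46065087 the old site measured 750 bp with rank 299, and the young site inside it 71 bp with rank 1649. At chr3:157406061-157406462 the old site of 402 bp ranked 274 and the young one of 31 bp ranked 3467. The widest contrast was at chr3:89109583-89110014, where the old site of 432 bp ranked 106 and the young list held a single base, position 89109936, with rank 3372. The site on chromosome 9 stood in the 100 kb window with the largest excess of old sites, from 46000000 to 46099999, which held 15 old and 4 young sites. All 4 young sites there overlapped an old one, and the window held 5 young but no old Hdac3 sites.

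Most windows held more old than young sites, and the largest single differences were young ones. In windows of 1 Mb, 1605 of 2295 windows with a Foxa2 site (69.9%) held more old than young sites and 481 (21.0%) held more young ones. The old list was ahead by 10 or more sites in 187 windows and by 26 at most, on chromosome 8 from 124 to 125 Mb (35 old, 9 young). The next were chromosome 9 from 21 to 22 Mb (34 against 9) and from 70 to 71 Mb (32 against 7). Most old sites there were weak, with median q from 0.0970 to 0.118 in these 3 windows. A window on chromosome 7 from 88 to 89 Mb held 22 old sites, 5 of them within a q of 0.01, and no young one. The young list was ahead by 10 or more in 12 windows, led by chromosome 1 from 90 to 91 Mb (73 young, 24 old), chromosome 8 from 19 to 20 Mb (46 against 13) and chromosome 4 from 145 to 146 Mb (24 against 1).

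**Figure D4:**
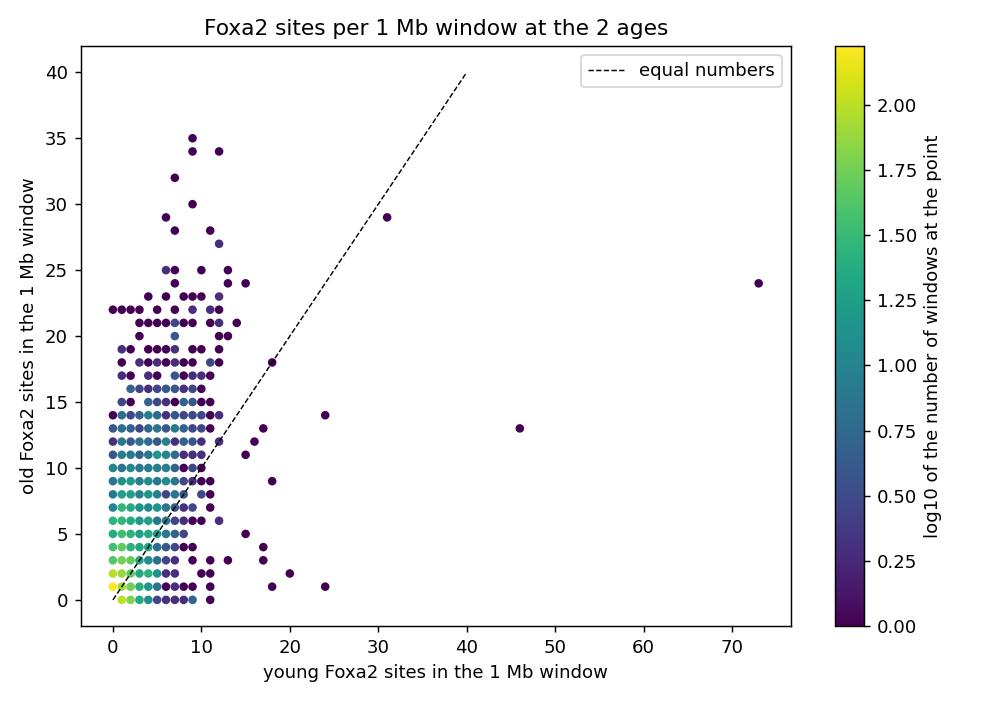
Old against young Foxa2 sites in each window of 1 Mb that holds any (2295 windows); colour gives how many windows share a point, as log10, and the dashed line marks equal numbers. Most windows lie above the line, with up to 35 old sites, and a few lie far to the right, up to 73 young and 24 old sites.

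Some of the windows with a large young excess also held many Hdac3 sites. The window on chromosome 1 held 111 Hdac3 sites of both ages together and that on chromosome 8 from 19 to 20 Mb held 73, but that on chromosome 4 held 6. The 3 windows with the largest old excess held 7, 9 and 1. Of the 12 windows of 100 kb with at least 8 young Foxa2 sites, 8 held at least 5 Hdac3 sites. So did 7 of the 46 windows with at least 8 old Foxa2 sites. These sets overlap and are not a contrast of the ages. Windows on chromosomes 1, 8, 9 and X held 65, 25, 30 and 23 young and 17, 8, 27 and 14 old sites. With 36, 15, 27 and 32 young Hdac3 sites, they count in both sets. The share over all windows was not counted. The crowded young windows were not of 1 kind. In the 100 kb window from 90100000 on chromosome 1, 65 young sites had a median width of 271 bp and a median enrichment of 2.25, and 10 of them were shared. In that from 19900000 on chromosome 8, 25 young sites had medians of 93 bp and 7.28, and in that from 145700000 on chromosome 4, 18 young sites had medians of 63 bp and 4.77. Of the 80 young-only sites of 200 bp or more in the whole list, 35 lay in the window on chromosome 1 or the next 100 kb. Of the 80, 41 (51.2%) overlapped an Hdac3 site, beside 127 of all 228 young sites of that width (55.7%). This overlap was therefore not particular to the young-only ones. The median enrichment of the 80 was 2.31, below the 11.9 of the young list. Of the 633 old-only sites of that width, 18 (2.84%) overlapped an Hdac3 site, beside 8.10% of all 1370 old sites so wide. The median enrichment of the 633 was 17.4 beside 22.3 over the old list. The part of such regions in the age difference was not tested beyond leaving out those held by all 4 lists, after which the ratio of old to young sites was 1.96.

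Old sites also stood closer together. The median gap to the next site was 51.4 kb in the old and 137 kb in the young list, which holds fewer sites. When sites within 10 kb of each other were joined into runs, 39.1% of old and 21.7% of young sites were in runs of 2 or more. Old sites in such runs were shared more often than single ones, at 25.5% against 18.0%, and young ones too, at 49.6% against 38.3%. In the 19 young runs of 5 or more sites, however, 68 of 255 sites (26.7%) were shared, below the single young sites. Of the 7822 single old sites 18.0% were shared, and of 82 old runs of 5 or more sites 71 (86.6%) held at least 1 shared site, although only 35.7% of the sites in them were shared. A run has more chances to hold a shared site than a single site has. Hdac3 sites were in 13 of these 82 old runs (15.9%) and in 14 of the 19 young runs of that size (73.7%). Among single sites the shares were 1.70% in the old and 2.47% in the young list. Here too a run has more chances to hold an Hdac3 site than a single site has. The longest old run, with 22 sites, began at 3015237 on chromosome 9, and the longest young run was the 69 sites from 90109721 to 90206695 on chromosome 1.

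Chromosomes differed in the balance of the ages. All 19 autosomes held more old than young sites, with ratios from 1.44 on chromosome 17 to 3.06 on chromosome 15 and a median of 1.91. Chromosome 15 had 682 old and 223 young sites, next came chromosomes 9 (2.45) and 2 (2.30), and the lowest after chromosome 17 were chromosomes 14 (1.56) and 1 (1.65). The excess on chromosome 15 was not confined to 1 place: each of its 11 stretches of 10 Mb held more old sites, with ratios from 2.16 to 8.25. At a q of at most 0.05 its ratio was 1.72, still the highest of the autosomes, and at 0.01 it was 3.61, below chromosomes 3 (3.88) and 11 (3.77). Chromosomes 9 and 17 changed places with the limit, with 2.08 and 2.86 at 0.01, so their order depended on the q limit.

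The X chromosome went the other way in the full lists. It held 224 young and 109 old sites, a ratio of 0.487, and 16 of its 17 stretches of 10 Mb held more young sites. The ratio was 0.673 at a q of at most 0.05 and turned to 1.21 at 0.01, with 24 young and 29 old sites. Weak sites were more frequent among young X sites: 50.9% of them had a q over 0.05, against 12.6% on autosomes. Of the young X sites 17.4% were shared, against 41.6% on autosomes. The strong end held many X sites too: 14 of the 166 young sites with a q of 1e-05 or less (8.43%), beside 3.39% of the young list. The 100 kb window from 166400000 on X held 23 young sites with a median q of 2.79e-10, 11 of them shared. Old X sites were shared more often than old autosomal ones, at 38.5% against 20.8%, on a chromosome where the young list is the longer one. Of the 42 shared old X sites, 14 lay in the window from 166400000, where all 14 old sites were shared. That window also held 32 young and 26 old Hdac3 sites. The q-value thus varied by chromosome within a list, and the direction of the X ratio depended on the q limit. At 0.01 the X ratio was still below that of each autosome, which ran from 2.08 to 3.88 with a median of 2.86. Chromosome Y held 5 young sites and no old one.

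**Figure D5:**
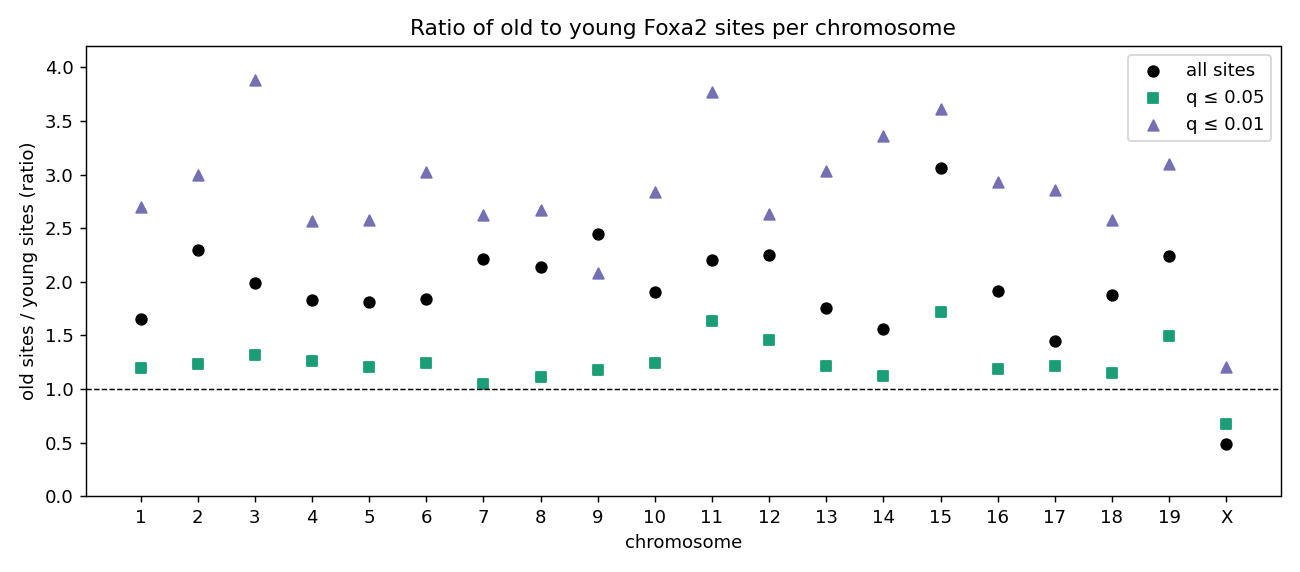
Ratio of old to young Foxa2 sites (vertical axis) per chromosome (horizontal axis) for all sites (circles), sites with a q of at most 0.05 (squares) and of at most 0.01 (triangles); the dashed line marks equal numbers. Chromosome 15 is highest over all sites at 3.06, and the X chromosome is below 1 except at 0.01, where it stands at 1.21.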

How the data were processed

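Foxa2 was measured by ChIP-seq in liver at 3 and 21 months. The submitters' processing notes name BWA and mm9. For the peak caller, the control and the thresholds nothing is given in the sources used here. The authors deposited a fold enrichment (a ratio per site) and a q-value, per the file headers, and q reached 0.12 in both Foxa2 lists. How the authors combined the 2 libraries of a group is not given, nor is depth.

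Positions are printed as deposited, with the end counted in the site. Every site was used. Sites were shared when they overlapped by 1 bp or more, and a distance is the difference between facing edges. Regions held by all 4 lists (103) came from merging overlapping sites. Overlap counts were equal with bedtools 2.31.1. On simulated data with 200 planted sites, 100% of planted overlaps were found. Overlaps and intervals were computed with pandas 2.3.3 and scipy 1.17.1 under Python 3.11.15, and plots were drawn with matplotlib 3.10.9.

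Named sites were those of highest enrichment per class (at least 30 bp, q of at most 0.01, outside regions of all 4 lists), the widest old shared sites, the largest width ratios, and the extreme chromosomes and windows. Of the sites these rules name, a part is printed for shared sites and windows. The classes, lists and rules were chosen with earlier results of these data known. Gene loci, position relative to genes and forkhead motifs were planned but not run, since the gene tables at hand are of another build than mm9. The alternatives tried are given at the end.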

Additional observations from a re-analysis of the deposited data

Results flagged for a closer look

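The number of listed sites was 1.94 times as high at 21 as at 3 months for Foxa2 and 0.503 times as high for Hdac3. These opposite directions in the 2 proteins drew attention. With 1 list a group the difference was not tested. The full lists reach unlike far into high q: 6521 of 6604 young Foxa2 sites but 1288 of 5828 young Hdac3 sites had a q of at most 0.1. At that limit the ratio was 1.49 for Foxa2 and 1.73 for Hdac3, so that both were above 1.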

How the results depend on the processing

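The old list was the longer one under all 6 alternatives run for its length, and depth, which is unknown, limits all counts. The ratio of 1.94 was 1.24 at a q of at most 0.05 and 3.08 over sites at least 30 bp wide. The share of young sites in the old list, 40.7%, was 75.8% at a q of at most 0.01, 59.3% over sites at least 30 bp wide, 36.8% with equal numbers by q, 24.7% with equal numbers by enrichment, 18.7% when 50% of both sites had to overlap and 43.1% with edges within 500 bp. The share of old sites in the young list, 21.0%, was 26.6%, 33.1% and 26.7% at a q of at most 0.1, 0.05 and 0.01, 19.3% over sites at least 30 bp wide, 20.2% without regions held by all 4 lists, 36.8% and 24.6% with equal numbers by q and by enrichment, 9.60% at an overlap of 50% and 22.6% with edges within 500 bp. At a q of at most 0.05 the ratio on chromosome 15 was 1.72, and 84.6% of young-only and 81.8% of old-only sites lay over 10000 bp away. A q of at most 0.01 on chromosomes X and 15 was added after the data were seen, and there the X ratio turned to 1.21. The cause of these shifts was not tested, apart from fewer sites being compared under a stricter limit. The median width ratio of pairs, 1.98, was 2.05 without regions held by all 4 lists and 1.99 at a q of at most 0.05. No paired analysis was possible because the 2 libraries of a group are combined in 1 list, and for the same reason no library could be left out.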

Other observations

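Enrichment values over 1000 were found at sites under 30 bp wide. Of the 144 young sites of 1 bp, 67 had an enrichment over 1000, with a median of 602 over the 144 and a highest value of 28348. Of the 39 old sites of 1 bp 14 did, but their median was 19.8, beside 22.6 over old sites of 30 bp or more, and the highest old value, 9755, was at a site of 2 to 29 bp. No site of 30 bp or more reached 1000 in either Foxa2 list. Of the 83 young and 29 old sites over 1000, 7 and 1 were shared.

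The widest young site, chr11:3080683-3100025, measured 19343 bp with an enrichment of 1.07 and a q of 0.00204. It had no old counterpart within 17321 bp and overlapped an Hdac3 site. The nearby young site of 4609 bp at chr11:3075641-3080249 had an enrichment of 1.10. An old-only site of 2900 bp at chr11:3060463-3063362 (enrichment 1.24) began 10004 bp after the end of the nearest young site, which was neither of these 2.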
